A study of Mus musculus with 3 samples.

Results

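The genes described are the enzymes of glycolysis, the tricarboxylic acid (TCA) cycle and the pentose phosphate pathway in mpkDCT4a cells, with the carriers of glucose and lactate and the enzymes of glucose synthesis. They are 51 genes of 55487 in the deposited count table, taken by name from a list and matched to the table through the Ensembl identifiers of GENCODE M21, a gene annotation of the mouse genome build GRCm38. The rule names the genes and sets no threshold on a measured value. Aldoa matched a second identifier (ENSMUSG00000114515) that held 2 counts, both in replicate 3, and its values below are those of ENSMUSG00000030695.

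Glycolysis splits glucose into pyruvate in the cytosol and yields a little ATP without oxygen. Pyruvate is then reduced to lactate and exported, or enters mitochondria, where pyruvate dehydrogenase feeds it to the TCA cycle. The pentose phosphate pathway draws off glucose 6-phosphate to make NADPH and ribose for nucleotides. Many steps are carried out by several isoenzymes, encoded by separate genes whose use differs between tissues. In the kidney, glucose synthesis belongs to the proximal tubule, while the distal convoluted tubule is rich in mitochondria and spends much ATP on sodium transport.

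The mpkDCT4a line is an immortalised line of the mouse distal convoluted tubule, labelled wild type. The 3 libraries, made from total RNA after removal of ribosomal RNA, form 1 group, so no condition was compared with another. The cultures shared a medium with 20 mM glucose, 2 mM glutamine, 2% fetal calf serum, insulin (5 µg/ml), epidermal growth factor (10 ng/ml), dexamethasone (50 nM), triiodothyronine (1 nM), transferrin (5 µg/ml) and sodium selenate (90 nM), at 37 °C in 5% CO2. The levels below are those of cells given abundant glucose and insulin, with no sample grown without them. Whether the replicates were separate cultures is not said in the labels, so the p-values speak of the spread among these 3 libraries alone, and that spread may be technical.

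The libraries held 436983, 482418 and 443192 counts, so that 1 count was worth 2.07 to 2.31 CPM, the count scaled to library size. For a gene at 0 counts throughout, a level of up to 2.20 CPM is allowed (3 counts over the pooled libraries), and such limits and intervals cover counting error only. Of 12 markers of the distal convoluted tubule 5 reached a mean of 1 CPM (Wnk4, Cnnm2, Trpm6, Kcnj10 and Egf), with a summed level of 66.3 to 94.1 CPM, while Slc12a3, Pvalb, Calb1, Klhl3, Emx1, Sall3 and Tmem52b had 0 counts. The labelled cell type thus lacked counts of its defining cotransporter gene, Slc12a3. Of 15 markers of the proximal tubule 5 were at or above 1 CPM, with a summed level of 284 to 340 CPM. That sum was above that of the distal convoluted tubule list in each library, and Lrp2 held 293 of its 426 counts. Of 10 markers of leukocytes 2 were at or above 1 CPM (37.3 to 62.7 CPM summed) and of 10 of fibroblasts and smooth muscle 4 (13.4 to 26.9 CPM summed). In RNA from a whole culture, fewer cells of a type and less RNA per cell cannot be told apart.

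Most of the listed genes were detected, and their levels were high beside those of other genes. A mean of at least 1 CPM, called detected here, was reached by 46 of the 51 genes, where the same held for 50.6% of 21974 protein-coding genes. This threshold is low: Slc2a3 passed it with 2 counts in all. It lies below the 2.20 CPM allowed for a gene at 0 counts, so a gene called not detected may exceed a detected one. At least 100 CPM was reached by 25 of the 51 genes, against 12.2% of protein-coding genes. The genes had 4766, 5186 and 4818 counts in replicates 1, 2 and 3, which is 1.09%, 1.08% and 1.09% of each library (exact 95% intervals 1.06 to 1.12%, 1.05 to 1.10% and 1.06 to 1.12%). Levels of different genes are compared as TPM (counts divided by the length of all annotated exons of a gene and scaled to the same sum in each library). The median TPM of the 51 genes was 93.1, and that of all protein-coding genes was 1.51. Over detected genes alone the medians were 114 TPM for the 46 and 31.4 TPM for 11122 protein-coding genes. Of 72 further genes of the same pathways 49 were detected and 21 had 0 counts. Those 49 had a median of 39.1 TPM, so the level of the listed genes does not stand for the pathways as a whole.

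**Figure D1:**
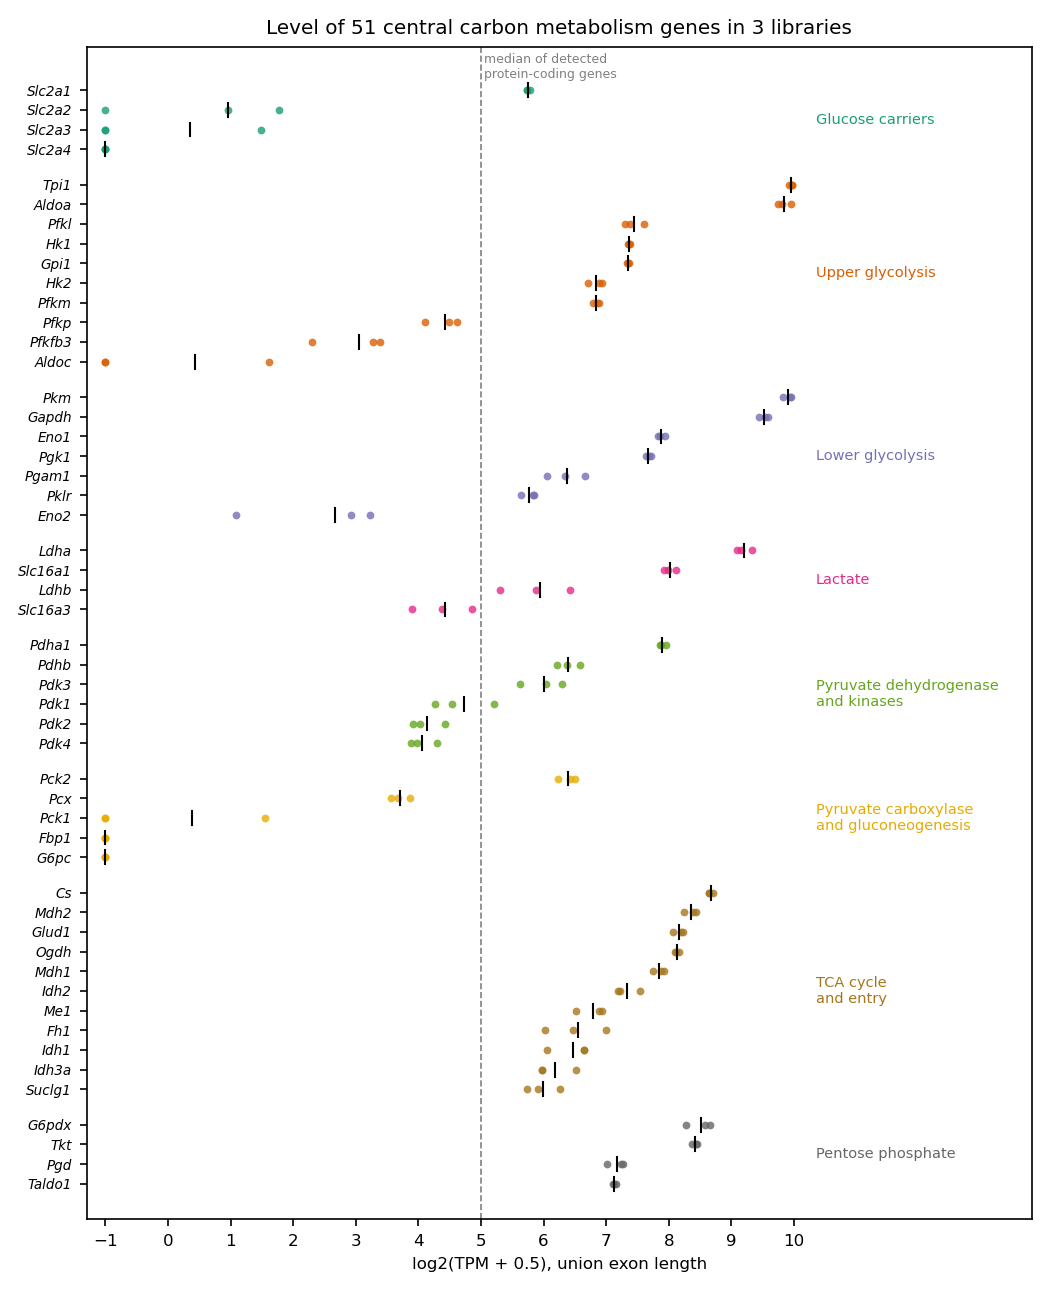
Level of the 51 genes by role, as log2(TPM + 0.5) with TPM from the union of exons. Points are the 3 libraries, black ticks mark the log2 of the mean TPM + 0.5, and the dashed line is the median of detected protein-coding genes (31.4 TPM). Tpi1, Pkm and Aldoa stand highest, and Slc2a4, Fbp1 and G6pc lie at 0 TPM (-1 on the axis).

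Of the glucose carriers, 1 was well covered. Slc2a1, which encodes the widely expressed carrier GLUT1 (chromosome 4, 119108711 to 119137983, plus strand), had 22, 24 and 23 counts and 53.2 ± 1.18 TPM (SD, n = 3). Slc2a2, which encodes GLUT2 of liver, islet and proximal tubule, had 2, 0 and 1 counts. Slc2a3, which encodes the high-affinity GLUT3 of neurons, had 2, 0 and 0 counts, and Slc2a4, which encodes the insulin-regulated GLUT4 of muscle and fat (chromosome 11, 69942539 to 69948188, minus strand), was at 0 throughout. Counts of the last 3 genes are too few to rank them. Slc2a1 had 71.3 times the level of Slc2a3 per length (95% counting interval 19.0 to 600.4; 41.9 times by the longest protein-coding transcript) and at least 22.8 times that of Slc2a4 by exon length, or at least 17.8 times by that transcript, computed against 3 counts over all libraries. Of 9 further genes listed from the Slc2a and Slc5a carrier families, not all of them mainly carriers of glucose, only Slc2a8 was detected (4, 4 and 3 counts). Slc2a5, Slc2a6, Slc2a9, Slc2a10, Slc2a12, Slc2a13 and the sodium-coupled carriers Slc5a1 and Slc5a2 had 0 counts. Slc2a1 stood above the median of detected protein-coding genes and below the median of upper glycolysis, which was 162 TPM over 9 detected genes.

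Both common hexokinases, which trap glucose as glucose 6-phosphate, were expressed. Hk1, the housekeeping form, had 170, 182 and 167 counts (164 ± 2.00 TPM), and Hk2, the insulin- and growth-factor-responsive form, had 74, 95 and 84 counts (114 ± 9.55 TPM). Hk1 was the higher in every library, by 1.44 times per length (1.23 to 1.67), or by 2.64 times with the longest protein-coding transcript as length. The leukocyte form Hk3 had 0 counts. Gpi1, which turns glucose 6-phosphate into fructose 6-phosphate, had 126, 136 and 124 counts (162 ± 1.75 TPM). Of the 11 further genes of upper glycolysis 7 were detected. Highest were Pgm1 (30, 38 and 33 counts), the phosphoglucomutase that links glycogen to the pathway, and the related Pgm2 (19, 26 and 23 counts).

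All 3 phosphofructokinase subunits, which carry the committed step of glycolysis, were expressed, with the liver subunit highest. Pfkl had 125, 145 and 156 counts (173 ± 19.5 TPM), the muscle subunit Pfkm had 44, 50 and 47 (114 ± 3.51 TPM), and the platelet subunit Pfkp had 35, 42 and 27 (20.9 ± 3.74 TPM). The order Pfkl, Pfkm, Pfkp was the same in each library. Per length Pfkl exceeded Pfkm by 1.51 times (1.25 to 1.84) and Pfkp by 8.22 times (6.62 to 10.29), while Pfkm exceeded Pfkp by 5.44 times (4.19 to 7.08). The sizes depend on the length used: with the longest protein-coding transcript as length the ratios were 2.33, 4.55 and 1.95, in the same order. Pfkfb3, which makes the phosphofructokinase activator fructose 2,6-bisphosphate, had 4, 9 and 9 counts (7.82 ± 2.97 TPM), among the lowest of the detected genes. Tigar, which lowers the same activator, had 19, 12 and 11 counts.

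Triose phosphate isomerase and aldolase were, with Pkm, the highest by exon length. Tpi1, which interconverts the 3-carbon sugars (chromosome 6, 124810586 to 124814296, minus strand), had 328, 346 and 331 counts and 987 ± 19.4 TPM, rank 76 of 21974 protein-coding genes. Aldoa, the ubiquitous aldolase that splits the 6-carbon sugar (chromosome 7, 126795234 to 126800751, minus strand), had 312, 323 and 346 counts and 912 ± 69.7 TPM, rank 88. Their library values overlapped, from 965 to 1000.1 TPM for Tpi1 and from 852 to 989 TPM for Aldoa. The brain form Aldoc had a single count, in replicate 3. Aldoa exceeded Aldoc by 1100-fold per length, with a counting interval of 197 to 43476 that reflects that single count, and by 1764-fold by the longest protein-coding transcript.

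Lower glycolysis, from glyceraldehyde 3-phosphate to pyruvate, held genes of unequal level, all 7 of them detected. Pkm, the pyruvate kinase of most tissues and of dividing cells (chromosome 9, 59656368 to 59679375, plus strand), had 542, 638 and 597 counts and 960 ± 46.5 TPM, rank 78. Gapdh, the dehydrogenase often used as a reference gene (chromosome 6, 125161715 to 125166467, minus strand), had 378, 374 and 367 counts and 733 ± 35.5 TPM, rank 120. Eno1, the ubiquitous enolase, had 146, 172 and 149 counts (234 ± 9.84 TPM). Pgk1, the phosphoglycerate kinase, had 53, 61 and 55 counts (203 ± 5.59 TPM), and Pgam1, the mutase that follows it, had 19, 17 and 24 (82.3 ± 17.5 TPM). Gapdh and Pgam1, enzymes of the same linear route, did not overlap, at 695 to 765 TPM and 65.9 to 101 TPM. With the longest protein-coding transcript as length Gapdh led, at 1563 TPM, over Pkm (1446), Aldoa (1256) and Tpi1 (1239), so the order at the top depends on the length used. The liver and erythrocyte pyruvate kinase Pklr had 19, 24 and 22 counts (54.2 ± 4.41 TPM), and Pkm exceeded it 17.7-fold (13.81 to 23.0; 32.6-fold by the longest protein-coding transcript). The neuronal enolase Eno2 had 4, 1 and 5 counts, and Eno1 exceeded it 40.8-fold (22.0 to 85.7; 64.4-fold by that transcript). Of the annotated exons of Pklr 22.0% overlap Hcn3 on the other strand, and no source used here gives the strand setting of the counting, so reads there cannot be assigned to Pklr with certainty. Of 7 further genes 3 were detected, led by the muscle enolase Eno3 (8, 7 and 6 counts) and the bisphosphoglycerate mutase Bpgm (12, 14 and 11 counts), and the testis forms Gapdhs and Pgk2 had 0.

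Several of these genes share long runs of sequence with other genes. Mouse Gapdh, Pgk1, Eno1 and Pgam1 have processed pseudogenes, reverse-transcribed copies that keep long identical runs. Of the 50-base stretches of the longest protein-coding transcript, 82.5% for Gapdh, 72.2% for Eno1, 68.0% for Pgk1, 41.5% for Pgam1 and 34.4% for Pkm also occur in a transcript of another annotated gene, on either strand. Over the full exon set, which is the measure available for all genes, 8 of the 51 genes had more than 20% of stretches shared, as had 9.10% of detected protein-coding genes. For Gapdh and Eno1 the coding stretch found in most other genes is shown. A read that lies within it matches several places, and counting may leave such a read out or place it on a copy. The read length is not stated in any source used here, and a longer read may match 1 place only. Each stretch is 50 bases within 1 exon, 5′ to 3′ on the gene's strand, in GRCm38 coordinates, from the GENCODE M21 transcript. The Gapdh stretch lies in exon 4 of 7 (chr6:125162898-125162947, minus strand) and occurs in 84 other annotated genes and that of Eno1 in exon 7 of 12 (chr4:150245115-150245164, plus strand) in 5.
Gapdh: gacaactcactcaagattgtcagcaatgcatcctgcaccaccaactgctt
Eno1: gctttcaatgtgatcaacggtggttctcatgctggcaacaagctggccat

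The copies themselves received few counts. The 89 genes elsewhere that share at least 100 stretches with Gapdh, 85 of them annotated as pseudogenes, held 40 counts in all, against 1119 for Gapdh. The 3 such genes of Pgk1 held 0 counts, the 3 of Eno1 held 1, the 2 of Pgam1 held 1 and the 2 of Pkm held 6. Eno1b, a protein-coding copy of Eno1, had 0 counts, and 84.5% of its own stretches are shared. No source used here says whether reads with several matches were dropped, and what share of reads from these genes was lost was not tested. When only stretches of the longest protein-coding transcript found in no other gene were taken as length, Gapdh stood at 9246 TPM, Pkm at 2249, Eno1 at 1679, Pgk1 at 588 and Pgam1 at 118, against 1382 for Tpi1. Those values apply only if reads were as long as the 50-base stretches and each read matching a shared stretch was left out, which was not tested. Exons of other genes also overlap 15.3% of the exons of Pkm (Gm49759, same strand), 13.6% of those of G6pdx (Ikbkg, other strand), 11.5% of those of Gpi1 (Gm26762, other strand) and 10.7% of those of Pfkm (Gm26513 and Senp1).

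**Figure D2:**
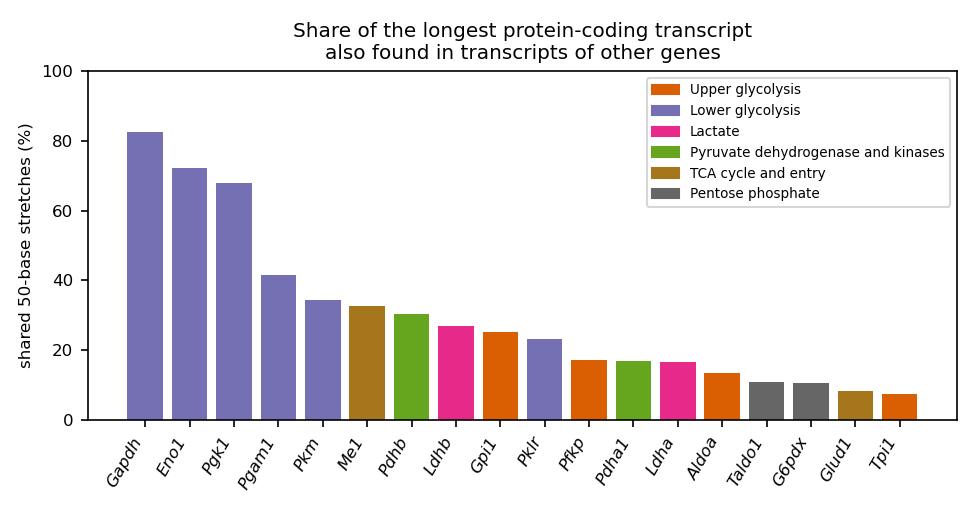
Share of 50-base stretches of the longest protein-coding transcript found again among the transcripts of other annotated genes, for the genes above 5%. Bars are single values from the annotation, coloured by role. Gapdh (82.5%), Eno1 (72.2%) and Pgk1 (68.0%) of lower glycolysis stand highest.

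Lactate was represented by its muscle-type enzyme and by the carrier MCT1. Ldha, the subunit that favours making lactate from pyruvate (chromosome 7, 46841475 to 46855627, plus strand), had 254, 235 and 227 counts and 586 ± 50.2 TPM, rank 173 of protein-coding genes. Ldhb, the heart-type subunit that favours using lactate (chromosome 6, 142490249 to 142507957, minus strand), had 11, 8 and 16 counts and 60.8 ± 22.9 TPM. Ldha was higher in each library, 9.70-fold per length (6.91 to 14.04; 14.7-fold by the longest protein-coding transcript). Slc16a1, which encodes the proton-coupled carrier MCT1, had 147, 139 and 135 counts (258 ± 18.6 TPM), and Slc16a3, which encodes the exporter MCT4 of glycolytic muscle, had 18, 10 and 13 counts (21.0 ± 6.96 TPM). Slc16a1 exceeded Slc16a3 12.3-fold (8.94 to 17.4). Bsg, the chaperone that carries both to the membrane, had 201, 244 and 182 counts and 931 ± 99.2 TPM, with library values of 835 to 1033 TPM that overlap those of Tpi1 and Aldoa. Emb, a related chaperone, had 18, 16 and 14 counts. The testis form Ldhc and the carriers Slc16a7 and Slc16a8 had 0 counts.

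Pyruvate dehydrogenase, the gate from pyruvate to the TCA cycle, was present with all 4 of its inhibitory kinases. The catalytic subunit genes Pdha1 and Pdhb had 104, 112 and 111 and 38, 37 and 44 counts (237 ± 9.13 and 83.6 ± 10.7 TPM). Pdha1 exceeded Pdhb 2.84-fold by exon length (2.30 to 3.54) but 1.46-fold (1.18 to 1.82) by the longest protein-coding transcript, and by the stretches of that transcript found in no other gene the ratio was 1.21 with an interval that includes 1 (0.975 to 1.501). Of the exons of Pdha1 16.1% overlap Map3k15 on the other strand. Among the kinases, which switch the complex off, Pdk3 was highest (15, 26 and 20 counts; 64.0 ± 14.5 TPM). Pdk1, a hypoxia-responsive kinase, had 21, 19 and 34 counts (25.9 ± 9.26 TPM), Pdk2 had 6, 6 and 8 (17.2 ± 3.42 TPM) and the fasting- and glucocorticoid-responsive Pdk4 had 8, 7 and 6 (16.2 ± 2.54 TPM). Pdk3 exceeded Pdk4 3.98-fold (2.39 to 6.89). Pdk1 had 0.399 times its level (0.281 to 0.570) and Pdk2 0.265 times (0.152 to 0.446). Pdk1 and Pdk2 could not be told apart, at a ratio of 1.504 with an interval of 0.908 to 2.60. Of 9 further genes of this step 8 were detected, led by the dehydrogenase Dld (46, 58 and 59 counts) and the acetyltransferase Dlat (51, 38 and 48 counts), and the testis form Pdha2 had 0.

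Of the 5 listed genes of pyruvate carboxylation and glucose synthesis 2 were detected, Pck2 and Pcx, as were 3 of 4 further genes. Fbp1, which removes a phosphate from fructose 1,6-bisphosphate (chromosome 13, 62864753 to 62888282, minus strand), and G6pc, which releases free glucose (chromosome 11, 101367561 to 101377903, plus strand), were at 0 counts throughout. Pck1, the cytosolic phosphoenolpyruvate carboxykinase induced in liver and proximal tubule, had a single count, in replicate 3. Its mitochondrial counterpart Pck2 had 84, 87 and 70 counts (83.4 ± 7.94 TPM) and exceeded Pck1 106-fold (18.8 to 4199). Pcx, the pyruvate carboxylase that refills the TCA cycle, had 8, 7 and 7 counts (12.5 ± 1.41 TPM), 0.0529 times the level of Pdha1 (0.0327 to 0.0814). The muscle form Fbp2 had 4 counts in each library, and G6pc3, the ubiquitous glucose 6-phosphatase, had 13, 13 and 21. Of the proximal tubule markers, Slc34a1, Slc5a2, Slc5a12, Slc22a6, Slc22a8, Slc27a2, Slc13a3, Slc7a13, Miox and Hnf4a had 0 counts, and the list summed to 284, 340 and 311 CPM in the 3 libraries. The 5 detected were Lrp2 (86, 108 and 99 counts; 47.3 ± 3.70 TPM), Aqp1 (22, 39 and 22 counts; 84.6 ± 25.5 TPM), Slc4a4 (10, 6 and 9 counts), Ggt1 (3, 8 and 7 counts) and Cubn (2, 3 and 2 counts).

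All 11 genes of the TCA cycle and its entry points were detected, each with a count in every library. Cs, the synthase that condenses acetyl-CoA with oxaloacetate, was highest, at 276, 315 and 278 counts (406 ± 10.8 TPM). The mitochondrial malate dehydrogenase Mdh2 followed (142, 160 and 130 counts; 327 ± 21.3 TPM), then the glutamate dehydrogenase Glud1 (147, 147 and 152 counts; 287 ± 16.7 TPM) and the oxoglutarate dehydrogenase Ogdh (186, 197 and 179 counts; 278 ± 6.22 TPM). Glud1 and Ogdh overlapped between libraries. The lowest were the succinyl-CoA ligase subunit Suclg1 (29, 46 and 33 counts; 62.8 ± 12.3 TPM) and the catalytic NAD-linked subunit Idh3a (55, 41 and 38 counts; 71.7 ± 16.5 TPM). With the longest protein-coding transcript as length Suclg1 had 139.9 TPM and Idh3a 103 TPM, and Idh1 was lowest at 78.0 TPM. The places of these genes thus depend on the annotated exons. Fumarase, encoded by Fh1, had 26, 56 and 36 counts (93.1 ± 31.6 TPM), with replicate 2 high and replicate 1 low. All 19 further genes of the cycle and its exits were detected, the highest being the citrate lyase Acly (279, 280 and 246 counts; 412 ± 27.6 TPM) and the succinate dehydrogenase subunit Sdha (144, 160 and 168 counts; 309 ± 25.5 TPM).

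In the 3 pairs compared between cytosol and mitochondria, the mitochondrial gene was the higher. Idh2, the NADP-linked mitochondrial isocitrate dehydrogenase, had 45, 50 and 58 counts (160 ± 22.9 TPM), and the cytosolic Idh1 had 33, 36 and 22 (88.5 ± 19.4 TPM), 0.555 times the level of Idh2 (0.424 to 0.725). Mdh1, the cytosolic malate dehydrogenase of the malate-aspartate shuttle, had 72, 81 and 66 counts (230 ± 14.7 TPM), 0.703 times the level of Mdh2 (0.595 to 0.830). With the longest protein-coding transcript the ratios were 0.451 and 0.348. On the log2(TPM + 0.5) scale the Mdh1 to Mdh2 ratio had a mean of -0.51 ± 0.0021 (SD, n = 3). That SD was the smallest of the 24 pairs compared. It is far narrower than the counting interval of 0.595 to 0.830, so it does not show that the ratio is stable. Pck2 over Pck1, given above, had the same order.

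The 4 listed genes of the pentose phosphate pathway had the highest median of the roles by exon length, at 243 TPM (SD of the library medians 13.3). By the longest protein-coding transcript it was 309 TPM. Lower glycolysis was higher, at 309 against 242 TPM by exon stretches found in no other annotated transcript and at 588 against 334 TPM by such stretches of the longest protein-coding transcript. G6pdx, the X-linked first enzyme and main source of NADPH (chromosome X, 74409483 to 74429194, minus strand), had 140, 162 and 115 counts (365 ± 48.5 TPM), lowest in replicate 3. Pgd, which makes the second NADPH, had 116, 129 and 100 counts (144 ± 13.4 TPM). G6pdx exceeded Pgd 2.53-fold by exon length (2.19 to 2.93), but by the longest protein-coding transcript the ratio was 1.01 (0.874 to 1.17), which includes no difference. In the non-oxidative branch, which trades sugars back to glycolysis, the transketolase Tkt had 290, 333 and 306 counts (341 ± 9.87 TPM) and the transaldolase Taldo1 had 36, 40 and 36 (139 ± 1.86 TPM), a ratio of 2.45 (2.01 to 3.01). Me1, the cytosolic malic enzyme and another source of NADPH, had 54, 61 and 42 counts (110 ± 16.7 TPM), 0.301 times the level of G6pdx (0.249 to 0.363). Of 7 further genes 5 were detected, led by the reticular H6pd (44, 47 and 57 counts) and the epimerase Rpe (11, 15 and 19 counts), and Tktl1 and Tktl2 had 0. Those 5 had a median of 26.3 TPM by exon length, below the 31.4 TPM of detected protein-coding genes. By the longest protein-coding transcript their median was 56.5 TPM, above the 34.6 TPM of detected protein-coding genes. By both lengths it was below the median of the 4 listed genes, so that high median does not stand for the whole pathway.

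**Figure D3:**
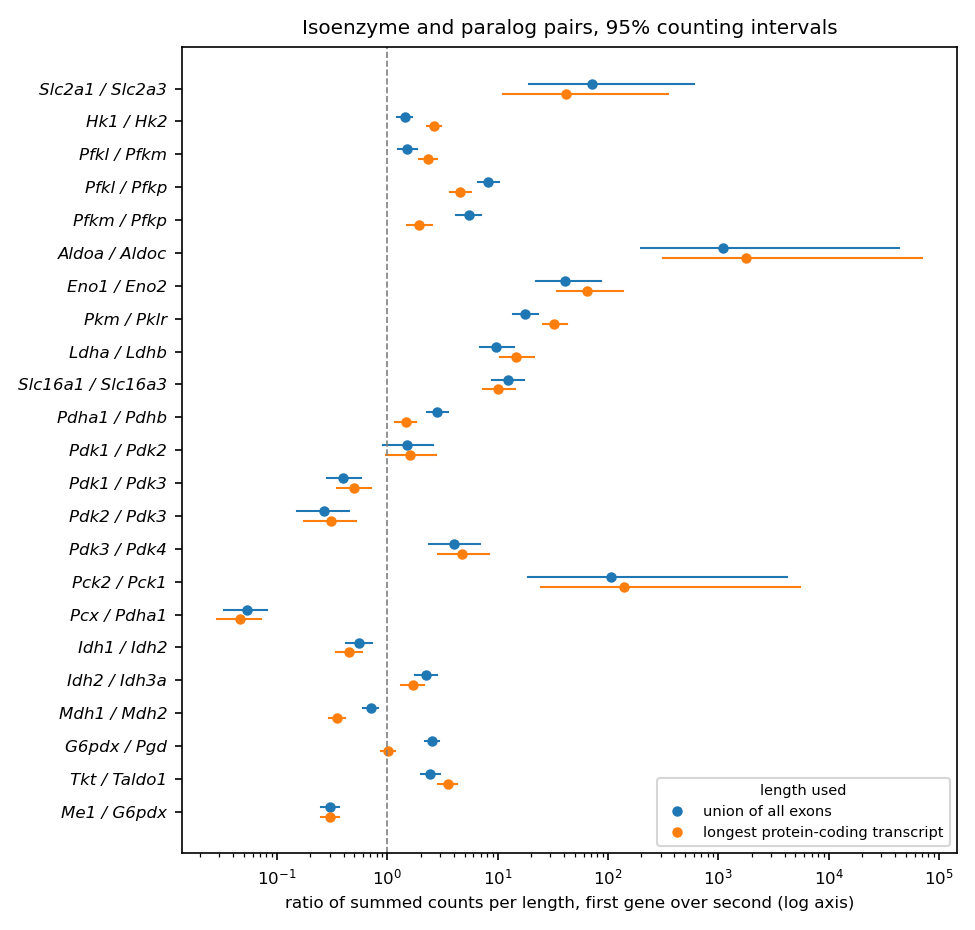
Ratio of summed counts per length for 23 pairs of isoenzymes or neighbouring enzymes, first gene over second, on a log axis. Points are ratios and bars 95% exact counting intervals, blue by the union of exons and orange by the longest protein-coding transcript. The intervals of Pdk1 over Pdk2 include 1 by both lengths, and that of G6pdx over Pgd includes 1 by the longest transcript.

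Each of the 24 pairs kept its direction across the 3 libraries by exon length. The two-sided exact sign-flip permutation test over 3 libraries allows no p below 0.25, which each pair reached (Benjamini-Hochberg adjusted p = 0.25 over the 24 pairs), so it cannot decide any pair. The counting intervals pool the libraries and leave out the spread between them. Of 23 pairs with counts for both genes, 22 had intervals that excluded 1 by exon length and 21 by the longest protein-coding transcript. How often intervals of other gene pairs exclude 1 was not computed, so these counts show nothing particular to isoenzymes. The choice of length moved 12 of 24 ratios by more than 1.5 times and turned none.

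No difference between replicates was called. None of the 46 detected genes passed the chi-square test of counts against library size (Benjamini-Hochberg over 12473 genes), where 0.0401% of all genes passed. At an unadjusted p under 0.05 there were 2, Fh1 (chi-square p = 0.0140) and Pdk1 (p = 0.0453), and 4.89% of all genes tested. The lowest adjusted p among them was 0.902. For the 37 genes with at least 50 counts the coefficient of variation of CPM had a median of 7.15%, from 1.59% for Tkt to 35.1% for Pdk1. At this depth a gene such as Ldhb, with 35 counts over 3 libraries, cannot show a difference between replicates of less than its counting error.

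Windows before the transcription start were read to see what the genes share in sequence. The 250 bases before each RefSeq start (GRCm38.p6) were at hand for 48 of the 51 genes, in 72 windows, since some genes have several starts. The ratio of observed to expected CpG, a measure of CpG islands, was at least 0.6 in 43 of 67 windows of detected genes (64.2%) and in 0 of 5 windows of the genes below 1 CPM, which belong to Aldoc, Pck1, Fbp1 and G6pc. The same held for 68.4% of windows of all detected protein-coding genes and 17.4% of those not detected, so the detected enzymes were close to other expressed genes. ACGTG, 1 form of the core of the hypoxia-response element, was found on either strand in windows of 18 of 44 detected genes (40.9%). The share was 25.7% of 8822 detected protein-coding genes and 18.5% of all 27025 genes. Other forms of that core, such as GCGTG, were not counted. The E-box CACGTG, which contains ACGTG on both strands, was found for 7 of the 44 (15.9%), against 10.2% of detected protein-coding genes. TATAAA was found for 2 of them (4.55%), against 7.27%, and for G6pc among the genes below 1 CPM. A gene was counted if any of its windows held the motif, so genes with several windows were counted more easily. The 44 detected genes had 67 windows, and the 8822 detected protein-coding genes had 11335. By window the ACGTG shares were 38.8% and 21.9%. A match is no binding site, and windows of 1 gene can overlap, as those of Ogdh do.

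Windows of 4 genes are shown, 250 bases each, 5′ to 3′ on the gene's strand, with ACGTG and its reverse complement CACGT in capitals. Ldha and Ldhb were chosen as isoenzymes 9.70-fold apart, and Slc2a2 and Fbp1 as genes with 3 and 0 counts. The Ldha window (chr7:46845554-46845803, plus strand) has a CpG ratio of 0.886 and holds ACGTG 5 times, where each of 2 CACGTG is counted on both strands. It is 1 of 2 starts of Ldha and was taken for its higher CpG ratio. The window of the other start has a ratio of 0.495 and no ACGTG. The Ldhb window (chr6:142507958-142508207, minus strand) has a ratio of 0.717 and no ACGTG, but it does hold GCGTG. The windows of Slc2a2 (chr3:28697653-28697902, plus strand) and Fbp1 (chr13:62888283-62888532, minus strand) have ratios of 0.150 and 0.297 and no ACGTG.
Ldha: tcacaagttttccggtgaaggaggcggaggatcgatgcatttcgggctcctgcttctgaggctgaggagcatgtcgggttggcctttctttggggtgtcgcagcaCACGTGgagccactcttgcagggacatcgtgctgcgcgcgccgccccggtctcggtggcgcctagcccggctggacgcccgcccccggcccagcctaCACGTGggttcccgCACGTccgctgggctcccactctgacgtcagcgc
Ldhb: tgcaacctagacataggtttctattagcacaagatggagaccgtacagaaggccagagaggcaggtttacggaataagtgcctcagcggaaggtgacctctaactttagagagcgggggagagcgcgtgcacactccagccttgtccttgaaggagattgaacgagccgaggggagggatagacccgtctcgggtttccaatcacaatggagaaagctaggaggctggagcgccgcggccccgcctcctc
Slc2a2: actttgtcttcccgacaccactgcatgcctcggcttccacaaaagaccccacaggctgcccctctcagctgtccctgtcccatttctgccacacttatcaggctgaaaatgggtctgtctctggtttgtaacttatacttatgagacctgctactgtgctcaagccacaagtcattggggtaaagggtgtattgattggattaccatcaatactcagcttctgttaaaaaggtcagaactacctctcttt
Fbp1: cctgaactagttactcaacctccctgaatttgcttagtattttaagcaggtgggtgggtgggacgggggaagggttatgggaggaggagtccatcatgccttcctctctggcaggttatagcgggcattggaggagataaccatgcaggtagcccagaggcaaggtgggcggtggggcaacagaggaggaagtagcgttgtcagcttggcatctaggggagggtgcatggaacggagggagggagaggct

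**Figure D4:**
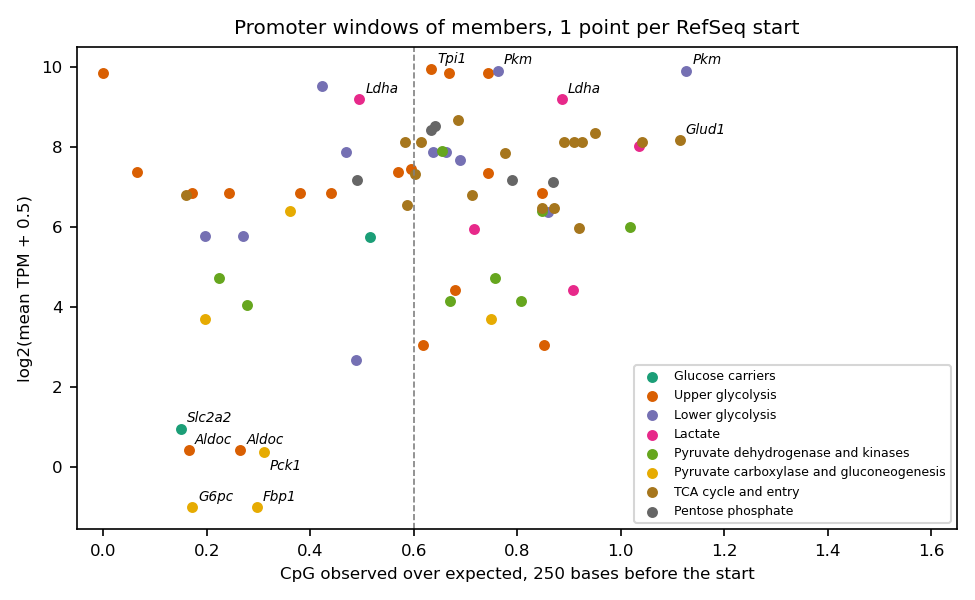
Promoter windows of 48 genes, 1 point per RefSeq start. The horizontal axis is the observed over expected CpG ratio of the 250 bases before the start and the vertical axis is log2(mean TPM + 0.5) of the gene. The windows of Aldoc, Pck1, Fbp1 and G6pc, all below 1 CPM, lie left of the dashed line at 0.6, as do some windows of highly expressed genes.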

How the data were processed

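Reads per gene had been counted by the authors, and the deposited values are whole-number counts, not normalised. STAR, HTSeq and mm10 are named in the submitters' processing notes, without versions or roles. No source used here states the strand setting, the read length or how multiply matching reads were handled. Per the labels' protocols, 500 ng of RNA was fragmented to about 300 bp.

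GENCODE M21 (same build) matched 55227 of 55487 identifiers, and the 260 others held 313 counts (0.0230%). Library sizes were totals scaled by trimmed mean of M-values (TMM) in edgeR 4.0.16 (factors 0.992 to 1.01) under R 4.3.3. TPM used the union of annotated exons. Departure of a gene's counts from proportion to library size was tested by chi-square, with Benjamini-Hochberg adjustment over 12473 genes of at least 1 CPM (threshold 0.05), tested on simulated data. Ratios of summed counts have 95% exact binomial intervals scaled by length, and log2 values used a pseudocount of 0.5. Floors are 3 counts. Analyses used Python 3.11.15 (scipy 1.17.1, numpy 2.4.6, matplotlib 3.10.9, pandas 2.3.3).

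Named are all members, the 2 highest of each list of further pathway genes and those at 0 counts, and all tubule markers. A few of these are not reported here. Tigar was named after its values were seen, as were the sequences. Members and lists were chosen with earlier results of these data known. Alternatives were DESeq2 1.42.0 size factors, library totals, other thresholds, lengths and pseudocounts, and leaving out each replicate.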

Additional observations from a re-analysis of the deposited data

How the results depend on the processing

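The number of detected genes was 43 to 48 under every alternative, and 46 in the report. The median level of the detected genes, 114 TPM, was 93.1 TPM over all 51 genes, 139 TPM over those of at least 10 CPM, 148 TPM by the longest protein-coding transcript, 137 TPM by stretches found in no other annotated transcript and 162 TPM by such stretches of the longest protein-coding transcript. Leaving out a replicate gave 107 to 116 TPM. The last 2 lengths, and a multinomial test computed exactly where a gene had at most 300 counts, were added after the data were seen. The median of glucose carriers was 27.1 TPM without replicate 1 (1.45 TPM with all). That of glucose synthesis was 11.8 TPM without replicate 1 and 13.2 TPM without replicate 2 (48.0 TPM with all). In these small groups genes of few counts, such as Slc2a3 and Pck1, cross 1 CPM when a library is left out, which moves the median. Slc2a1 itself was at 50.7 CPM with all libraries and 50.8 CPM without replicate 1. With the longest protein-coding transcript 10 of 48 genes moved by more than 1.5 times, from 0.733 to 2.37 times, and 23 of 24 pairs kept 1 direction in all libraries. None of the genes tested, 39 to 48 of the 51 depending on the setting, passed the chi-square test under any alternative, and at an unadjusted p under 0.05 there were 0 to 3. The exact test also called 0, with 1 gene under 0.05. No genome sequence was used here, so stretches that occur once in the genome were not counted. No paired analysis was possible because the samples form 1 group. Depth limits the genes with few counts: Slc2a2, Slc2a3, Aldoc and Pck1 had 1 to 3 counts, and their places cannot be ranked.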
